A study of Mus musculus with 9 samples.

Results

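The 10 genes described here encode proteins that remove superoxide and hydrogen peroxide or supply electrons for that removal. They are the peroxiredoxins Prdx1, Prdx2, Prdx3, Prdx5 and Prdx6, the superoxide dismutases Sod1 and Sod2, catalase (Cat), glutathione reductase (Gsr) and thioredoxin (Txn1). They were chosen by name, and all 10 were among the 11802 genes of the deposited table, matched through their Ensembl identifiers. Coordinates are those of GRCm38 in GENCODE M21. The series measured RNA bound to tagged ribosomes in white adipose tissue of mice, 1 library per replicate, to compare endothelium with and without Mfn2, the gene of the mitochondrial fusion protein mitofusin 2. The 4 WT libraries came from Pdgfb-iCreERT2:Rpl22HA mice and the 5 KO libraries from Pdgfb-iCreERT2:Mfn2ideltaEC:Rpl22HA mice. Both groups therefore carried the inducible Cre, which acts in endothelial cells, and the HA-tagged ribosomal protein Rpl22 used for the capture. The labels used here give no age, sex, induction schedule or time since induction, and they call the replicates biological without naming animals, so a p-value here reflects how far these libraries scatter.

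Superoxide leaks from the respiratory chain and from oxidases. Superoxide dismutases turn it into hydrogen peroxide, Sod1 in the cytosol and Sod2 in the mitochondrial matrix. Peroxide is then removed by catalase in peroxisomes and by peroxiredoxins, which carry the electrons on a reactive cysteine. Most peroxiredoxins are recharged by thioredoxin, whereas Prdx6 uses glutathione, which Gsr keeps in its reduced form. In endothelium these enzymes also shape peroxide signalling and the lifetime of nitric oxide.

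Levels are in CPM, the reads of a gene scaled to a common library total. Listed reads numbered from 1034753 (WT replicate 4) to 3829356 (KO replicate 5), and the 10 genes together held 261 to 679 reads in the WT libraries and 794 to 2348 in the KO libraries. Mitochondrial ribosomal RNA took 64.8%, 47.5% and 48.3% of listed reads in WT replicates 1 to 3, 13.9% in WT replicate 4 and 12.8% to 25.2% in the KO libraries. The CPM of other genes are shares of what is left. Differences are therefore given on 2 scales: the log2 difference of CPM + 1, called the deposited scale, and the same counted from the median gene of its own library, called the relative scale. A call is a limma p under 0.05 after Benjamini-Hochberg adjustment over all 11802 genes. Mfn2 itself averaged 36.1 ± 15.0 CPM over the WT libraries (SD, n = 4), against 66.7 ± 37.0 over the KO libraries (SD, n = 5), with a relative difference of −0.16 (limma adjusted p = 0.898), so its level did not separate the libraries by label. Which exons were removed is not stated in the labels, and directions below rest on those labels.

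Promoters are shown for 3 of the 10 genes because Prdx1 and Prdx3 were among the 3 largest differences and Sod1 had the smallest. RefSeq (GRCm38.p6) promoter windows, 250 bases before to 50 after a gene's start, matched 8 of the 10 symbols, without Prdx6 and Gsr. The stretches below run 5′ to 3′ along the gene's strand and stop where the annotated gene begins. Capitals mark a match to TGACNNNGC, the core of the antioxidant response element bound by NRF2, searched on both strands (GCNNNGTCA on the other).
Prdx1, chr4:116685349-116685543, plus strand: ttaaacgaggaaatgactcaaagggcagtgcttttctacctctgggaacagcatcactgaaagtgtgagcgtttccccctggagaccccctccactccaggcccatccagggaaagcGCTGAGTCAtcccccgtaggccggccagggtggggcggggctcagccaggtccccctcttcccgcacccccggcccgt
Prdx3, chr19:60874557-60874788, minus strand: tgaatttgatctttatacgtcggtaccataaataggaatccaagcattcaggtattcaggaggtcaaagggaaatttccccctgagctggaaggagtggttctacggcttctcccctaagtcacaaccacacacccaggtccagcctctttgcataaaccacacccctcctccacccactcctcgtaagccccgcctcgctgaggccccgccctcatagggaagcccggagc
Sod1, chr16:90220512-90220753, plus strand: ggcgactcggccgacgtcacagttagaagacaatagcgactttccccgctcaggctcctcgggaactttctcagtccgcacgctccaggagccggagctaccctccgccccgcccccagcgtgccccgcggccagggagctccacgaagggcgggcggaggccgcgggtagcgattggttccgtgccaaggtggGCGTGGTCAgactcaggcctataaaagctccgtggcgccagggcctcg
The match was in 2 of the 8 windows, Prdx1 and Sod1, and 12.4% of 32851 RefSeq promoter windows of the same length hold it. The Prdx1 match also spells the AP-1 motif TGAGTCA. A FOXO core, GTAAACA on either strand, was in none of the 8 windows and is in 3.65% of all windows. The genes with and without a match lay on both sides of the ordering that follows: Prdx1 near the top, Sod1 at the bottom.

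Antioxidant enzyme RNA lay higher in the KO libraries in the deposited CPM for all 10 genes, as it did for 94.6% of all genes, and 7 of the 10 were called higher. They were Prdx1, Prdx2, Prdx3, Prdx6, Sod2, Gsr and Txn1. The median log2 difference of the 10 was 1.67, beside 1.10 over all genes, of which 32.0% were called higher and 0.203% lower. On the relative scale none of the 10 was called by limma. The unadjusted limma p was under 0.05 for Prdx1 and Prdx2, as it was for 1378 of all 11802 genes. The relative median of the 10 was 0.69, beside 0.12 over all genes, of which 0.0339% were called higher and 0.0763% lower. On the recovered reads, edgeR with TMM scaling called none of the 10 (0.00847% of all genes higher), and neither did DESeq2. DESeq2 gave an adjusted p for only 4009 genes, of which 0.773% were called higher and 3.09% lower, and for none of Prdx2, Prdx3, Prdx6 and Sod2. The relative differences ran from 1.54 for Prdx2 to −0.47 for Sod1, with 8 of 10 above 0, beside 57.9% of all genes. Prdx2, Prdx1 and Prdx3 had the highest fitted values and Sod1 and Prdx5 the lowest, and the differences among members were not tested.

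**Figure D1:**
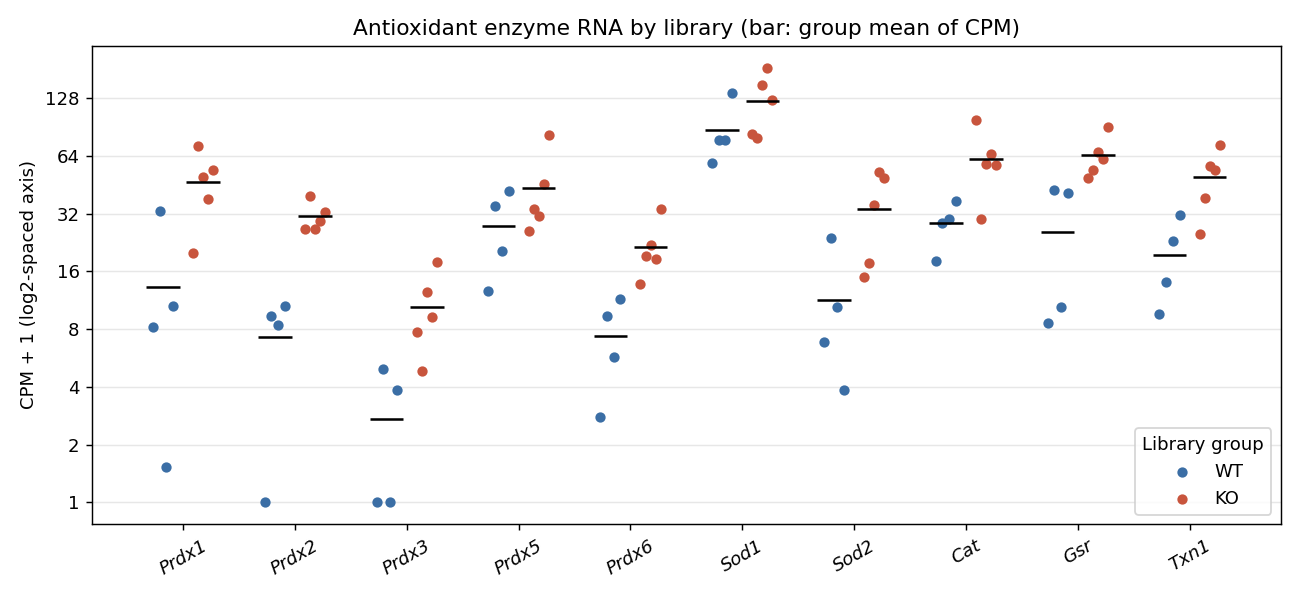
CPM + 1 on a log2-spaced axis for the 10 genes, with 1 point per library (4 WT, 5 KO) and a bar at the mean CPM of each group. For Prdx2, Prdx6 and Gsr the KO points all lie above the WT points, while for Sod1 and Prdx5 the groups overlap widely.

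Prdx2 is a cytosolic peroxiredoxin, best known as an abundant protein of red blood cells and also present in endothelium (ENSMUSG00000005161, chromosome 8, 84969587 to 84974834, plus strand). It was at 0, 8.31, 7.35 and 9.50 CPM across WT libraries 1 to 4, against 25.5, 38.7, 25.6, 28.1 and 31.6 CPM across KO libraries 1 to 5. Every KO library lay above every WT library, on the relative scale too. In CPM, 18.7% of all genes did so, as did Prdx6 and Gsr, and 0.0254% had every KO library below every WT library. On the relative scale 2.07% of all genes did so, and of the 10 only Prdx2. Group means were 6.29 ± 4.28 CPM (SD, n = 4) and 29.9 ± 5.51 CPM (SD, n = 5), a log2 difference of 2.51 (SE 0.59, limma adjusted p = 0.00641). Relative to the library median it was 1.54 (95% interval 0.46 to 2.62, limma adjusted p = 0.250). WT replicate 1 held 0 reads of Prdx2, which allows up to 1.35 CPM (3 reads), so this fitted difference depends on the pseudocount; without that library it was 1.71 (limma adjusted p = 0.0369) and 0.93 on the relative scale. Of 8 erythroid markers 6 were measured, and their summed level was highest in WT replicate 4, at 1041 CPM, where Prdx2 was at 9.50 CPM. That sum ranged from 62.0 to 1041 CPM in WT and from 106 to 839 CPM in KO, with the erythroid enzyme gene Alas2 at 0 in 2 libraries, and its part in the Prdx2 difference was not tested.

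Prdx1, a widely expressed cytosolic peroxiredoxin and a known NRF2 target, lies on chromosome 4 (ENSMUSG00000028691, 116685544 to 116700822, plus strand). It was at 7.20, 32.0, 0.53 and 9.50 CPM across WT libraries 1 to 4, against 18.8, 70.7, 48.3, 36.9 and 52.7 CPM across KO libraries 1 to 5. KO replicate 1 fell below WT replicate 2 and the other 4 KO libraries lay above all WT libraries. WT replicate 3 held a single read. The log2 difference was 2.40 (SE 0.59, limma adjusted p = 0.00714), and on the relative scale it was 1.42 (95% interval 0.12 to 2.72, limma adjusted p = 0.385). Without WT replicate 3 these values were 1.59 (limma adjusted p = 0.0434) and 0.64. On the recovered reads, with their own scaling, edgeR gave 0.84 and DESeq2 0.88.

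Prdx3 is the peroxiredoxin of the mitochondrial matrix (ENSMUSG00000024997, chromosome 19, 60864051 to 60874556, minus strand). It was at 0, 3.96, 0 and 2.85 CPM across WT libraries 1 to 4, against 6.68, 3.82, 11.5, 8.20 and 17.0 CPM across KO libraries 1 to 5. WT replicate 2 lay above KO replicate 2, and the other KO libraries lay above all WT libraries. These values rest on 13 reads in WT and 142 in KO, and a count of 0 allows up to 1.35 CPM in WT replicate 1 and 1.58 CPM in WT replicate 3. The log2 difference was 2.18 (SE 0.68, limma adjusted p = 0.0195), and on the relative scale it was 1.21 (95% interval −0.05 to 2.47, limma adjusted p = 0.457). EdgeR on the recovered reads with library totals did not call Prdx3 (adjusted p = 0.0617), and it called the other 6, beside 19.0% of all genes called higher and 0.161% lower.

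Prdx6, which takes its electrons from glutathione (ENSMUSG00000026701, chromosome 1, 161240112 to 161251219, minus strand), was at 1.80, 8.31, 4.73 and 10.4 CPM across WT libraries 1 to 4, against 12.8, 18.2, 20.9, 17.6 and 32.9 CPM across KO libraries 1 to 5. The groups did not overlap in CPM, but they did on the relative scale, where 3 of the 5 KO libraries stood above all WT libraries. Its log2 difference was 1.67 (SE 0.57, limma adjusted p = 0.0261) and its relative difference 0.70 (95% interval −0.24 to 1.63). Prdx5, a peroxiredoxin found in mitochondria, peroxisomes and cytosol (ENSMUSG00000024953, chromosome 19, 6906697 to 6910106, minus strand), was at 11.7, 34.0, 19.4 and 40.9 CPM across WT libraries 1 to 4, against 24.9, 33.0, 29.9, 44.5 and 80.8 CPM across KO libraries 1 to 5, and only KO replicates 4 and 5 lay above all WT libraries. It was not called (log2 difference 0.68, SE 0.47, limma adjusted p = 0.224), with a relative difference of −0.29 (95% interval −1.04 to 0.46). Prdx5 overlaps Trmt112 on the other strand by 409 bases, and with no strand in the library kit reads there cannot be told apart; Trmt112 had a mean of 12.4 CPM.

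Sod1, the copper-zinc superoxide dismutase (ENSMUSG00000022982, chromosome 16, 90220754 to 90226329, plus strand), was at 57.6, 76.8, 76.2 and 135 CPM across WT libraries 1 to 4, against 82.6, 78.4, 148, 183 and 123 CPM across KO libraries 1 to 5. WT replicate 4 exceeded 3 of the 5 KO libraries. Means were 86.4 ± 33.6 (SD, n = 4) and 123 ± 44.4 CPM (SD, n = 5), a log2 difference of 0.50 (SE 0.41, limma adjusted p = 0.295). Relative to the library median Sod1 had the lowest difference of the 10, −0.47 (95% interval −1.06 to 0.11, limma adjusted p = 0.540). That interval leaves room for a fall by 1.06 or a rise of 0.11 on the log2 scale. The relative intervals of Prdx1 and Prdx2 start at 0.12 and 0.46, and a difference between Sod1 and these genes was not tested. Rescaling the CPM without mitochondrial ribosomal RNA put it at −0.08. Sod1 overlaps Scaf4 on the other strand by 650 bases, and Scaf4 had a mean of 53.3 CPM.

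Sod2, the manganese enzyme of the mitochondrial matrix (ENSMUSG00000006818, chromosome 17, 13006846 to 13040063, plus strand), was at 5.85, 22.9, 9.45 and 2.85 CPM across WT libraries 1 to 4, against 14.0, 16.7, 34.3, 51.5 and 47.8 CPM across KO libraries 1 to 5. KO replicates 1 and 2 fell below WT replicate 2. The log2 difference was 1.73 (SE 0.55, limma adjusted p = 0.0211), and the relative one 0.75 (95% interval −0.39 to 1.90), or 0.13 without WT replicate 4. That library held 3 reads of Sod2 and the highest WT CPM of Sod1, so in CPM the 2 dismutases ranked that library in opposite order. On the relative scale Sod1 hardly varied in WT (2.91 ± 0.10, SD, n = 4), at 3.00 in WT replicate 1 and 2.99 in WT replicate 4.

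Mitochondrial and cytosolic paralogues were compared within each library, as the log2 ratio of their CPM + 1, in which the scaling of a library enters only through the added 1. Sod2 to Sod1 stood at a log2 ratio of −3.21 ± 1.43 over the WT libraries (SD, n = 4), against −1.98 ± 0.42 over the KO libraries (SD, n = 5), higher by 1.23 in KO (exact two-sided permutation p = 0.0794, adjusted 0.238 over 3 ratios; the smallest possible p is 0.00794). Its values were −3.10, −1.70, −2.88 and −5.14 across WT libraries 1 to 4, against −2.48, −2.16, −2.08, −1.81 and −1.35 across KO libraries 1 to 5. WT replicate 2 lay above 4 of the 5 KO libraries, and without WT replicate 4 the difference was 0.58. Prdx3 to Prdx1 differed by −0.21 (exact permutation p = 0.778), with −1.96 ± 1.13 in WT (n = 4) and −2.17 ± 1.00 in KO (n = 5). Txn2, the mitochondrial thioredoxin, to Txn1 differed by −0.26 (exact permutation p = 0.413), with −1.22 ± 0.51 in WT (n = 4) and −1.48 ± 0.33 in KO (n = 5). No difference between the groups in the balance of the compartments was shown in any of the 3 pairs.

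Catalase, the peroxisomal enzyme (ENSMUSG00000027187, chromosome 2, 103453849 to 103485160, minus strand), was at 17.1, 27.7, 28.9 and 36.1 CPM across WT libraries 1 to 4, against 97.7, 29.2, 57.0, 64.4 and 56.3 CPM across KO libraries 1 to 5. All KO libraries but replicate 2 lay above the WT libraries. It was not called (log2 difference 1.07, SE 0.44, limma adjusted p = 0.0563), and it was called without WT replicate 4 (0.0225) or KO replicate 2 (0.0333). Its difference was near that of the median gene, 0.09 on the relative scale (95% interval −0.59 to 0.78), and −0.10 without KO replicate 1, the library with the highest Cat.

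Gsr, which regenerates reduced glutathione (ENSMUSG00000031584, chromosome 8, 33652523 to 33698163, plus strand), was at 7.65, 41.5, 9.45 and 39.9 CPM across WT libraries 1 to 4, against 48.3, 53.0, 66.4, 60.9 and 89.0 CPM across KO libraries 1 to 5. The groups did not overlap in CPM, while on the relative scale WT replicate 2 was above every KO library. The log2 difference was 1.66 (SE 0.48, limma adjusted p = 0.0137), and the relative one 0.69 (95% interval −0.10 to 1.48). Txn1 is the cytosolic thioredoxin, which recharges peroxiredoxins such as Prdx1 and Prdx2 (ENSMUSG00000028367, chromosome 4, 57943373 to 57956411, minus strand). It was at 8.55, 13.1, 22.1 and 30.4 CPM across WT libraries 1 to 4, against 24.0, 37.8, 55.5, 52.7 and 72.3 CPM across KO libraries 1 to 5. WT replicate 4 lay above KO replicate 1 and below the other KO libraries. The log2 difference was 1.39 (SE 0.48, limma adjusted p = 0.0271), and the relative one 0.42 (95% interval −0.33 to 1.17).

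**Figure D2:**
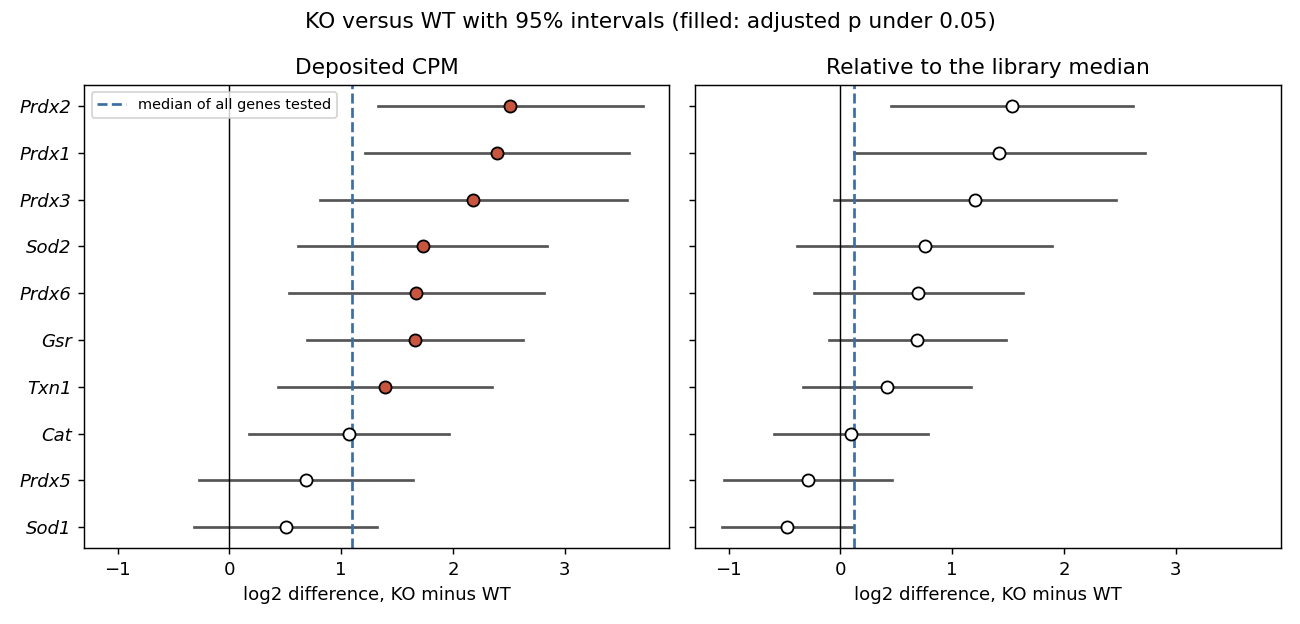
Log2 difference, KO minus WT, with 95% limma intervals for the 10 genes in the deposited CPM (left) and relative to the library median (right); filled points had an adjusted p under 0.05 and the dashed line is the median of all genes tested. In the left panel 7 points are filled and in the right panel none. The right panel runs from Prdx2 (1.54) to Sod1 (−0.47), and its order is that of the left by construction, since every gene shifts by the same amount.

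How far the calls held depended on single libraries. Prdx1 and Prdx2 were called on the deposited scale in all 9 settings that each left out 1 library, Gsr in 7, Prdx3, Prdx6 and Sod2 in 5 each, and Txn1 in 4. The number called was 2 without WT replicate 1, 4 without WT replicate 3, and 3 without KO replicate 3 or without KO replicate 5. Calls over all genes, in either direction, fell in the same settings from 3804 to 1103, 1808, 1700 and 1838. Prdx3 and Prdx6 lost their calls without each of these 4 libraries (limma adjusted p = 0.0503 to 0.102), and Gsr without WT replicate 1 (0.0741) or 3 (0.0590). Sod2 lost its call without WT replicate 1 or KO replicate 3, 4 or 5 (0.0512 to 0.0704), and Txn1 without any 1 of WT replicates 1 and 2 and KO replicates 3, 4 and 5 (0.0627 to 0.103). None of the 10 was called after rescaling without the mitochondrial rRNAs, where only 26 of all genes were called in either direction. The lowest limma adjusted p of the 10 was then 0.0737, for Prdx2 (log2 difference 2.34).

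**Figure D3:**
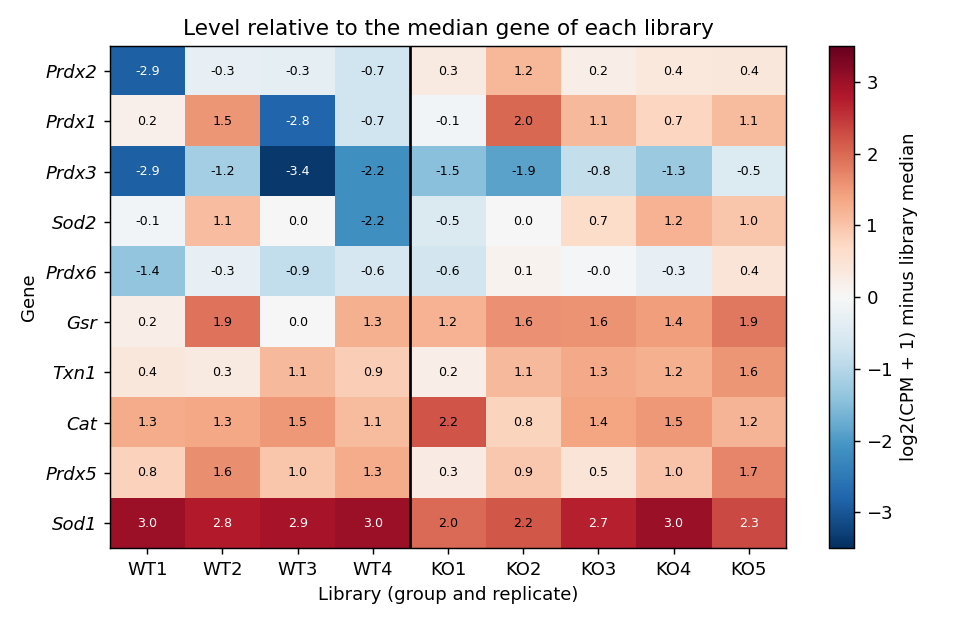
Log2(CPM + 1) minus the library median for each of the 10 genes (rows, ordered by their KO minus WT difference) in each library (columns, 4 WT then 5 KO); red lies above and blue below the median gene of that library. Sod1 lies about 2 to 3 above the median in every library and Prdx3 below it in every library, and the lowest cells are Prdx2 and Prdx3 in WT replicate 1, Prdx1 and Prdx3 in WT replicate 3 and, equal to each other, Prdx3 and Sod2 in WT replicate 4.

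Libraries also differed among themselves across these genes. WT replicate 1 held the lowest CPM of 8 of the 10 and KO replicate 5 the highest of 5. On the relative scale the median of the 10 was 1.22 in WT replicate 2, above every KO library (0.25 to 1.16), and between 0 and 0.21 in the other WT libraries. Single genes differed from that median: Prdx2 in WT replicate 2 lay below every KO library, and Txn1 below 4 of the 5.

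Levels of different genes were compared per kilobase of the principal transcript. In WT, Sod1 was highest at 135 ± 52.4 CPM per kilobase (SD, n = 4), followed by Prdx5 (21.0 ± 10.6), Txn1 (17.6 ± 9.24), Cat (10.5 ± 3.00), Gsr (9.22 ± 6.96), Prdx1 (5.37 ± 5.97), Prdx2 (3.90 ± 2.66), Prdx6 (2.65 ± 1.60), Sod2 (1.75 ± 1.51) and Prdx3 (1.15 ± 1.36). Apart from Sod1, neighbours in this order differed by less than the larger of their 2 SDs. In KO, Sod1 was at 192 ± 69.3 CPM per kilobase (SD, n = 5), Txn1 at 46.1 ± 17.5 and Prdx5 at 33.8 ± 17.8, and Sod2 was lowest at 5.61 ± 2.95, beside Prdx3 at 6.39 ± 3.42. The place of Sod1 depends on the length used: its principal transcript has 641 bases and all its annotated exons together 3970, and per kilobase of the latter it was at 31.0 in KO, below Txn1 at 46.1.

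Near-identical processed pseudogenes, copies of the spliced RNA that sit elsewhere in the genome, were listed for 3 of the genes, so their values are uncertain. For the Prdx1 and Prdx2 pairs a stretch of 70 coding bases is shown from GENCODE M21 (GRCm38) transcripts, with mismatched bases in capitals. It was picked for the most mismatches, so no other stretch of that length in the pair differs more.
Prdx1, coding bases 156 to 225: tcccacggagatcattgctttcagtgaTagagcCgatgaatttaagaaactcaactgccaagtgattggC
Gm21399, the same stretch: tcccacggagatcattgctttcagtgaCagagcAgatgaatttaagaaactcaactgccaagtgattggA
Prdx2, coding bases 7 to 76: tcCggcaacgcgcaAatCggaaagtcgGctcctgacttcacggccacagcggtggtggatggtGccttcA
Tdpx-ps1, the same stretch: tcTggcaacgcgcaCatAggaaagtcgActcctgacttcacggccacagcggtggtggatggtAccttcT
Over the coding sequence Prdx1 and Gm21399 (chromosome 8) differed at 10 of 597 bases, Prdx2 and Tdpx-ps1 (chromosome 1) at 22 of 594, and Sod1 and Gm8566 (chromosome 6) at 10 of 462. The longest stretches without a mismatch were 102, 160 and 122 bases, and how reads with several matches were assigned is not given in the sources used here.

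Gm8566 took 28.0% of the summed CPM of the Sod1 pair in WT and 31.2% in KO, with 33.6 ± 7.65 CPM (SD, n = 4) and 55.8 ± 21.0 CPM (SD, n = 5). Gm21399 took 22.8% and 32.2% of the Prdx1 pair, from 0.53 to 7.52 CPM in WT and from 6.37 to 47.3 CPM in KO, the latter in KO replicate 2, which also held the highest Prdx1. Tdpx-ps1 was at 0 in 3 WT libraries and at 0.53 CPM in the other, and between 2.34 and 15.3 CPM in KO. With each copy added to its gene, a choice made after the values were seen, the log2 difference of Prdx1 was 2.51 (limma adjusted p = 0.00508; 1.53 relative), that of Prdx2 2.71 (limma adjusted p = 0.00403; 1.74 relative) and that of Sod1 0.55 (limma adjusted p = 0.247; −0.43 relative). The order of the 3 genes was thus unchanged by the sum, and none was called on the relative scale. Prdx2 also overlaps Rnaseh2a and Junb at its 2 ends on the other strand, by 181 and 351 bases, at means of 11.6 and 17.9 CPM. Sod2 matched other genes above 95% identity only over stretches of at most 192 bases. Txn1 has a copy, Txn-ps1, with 95.8% identity over 309 bases, which was not among the listed genes.

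**Figure D4:**
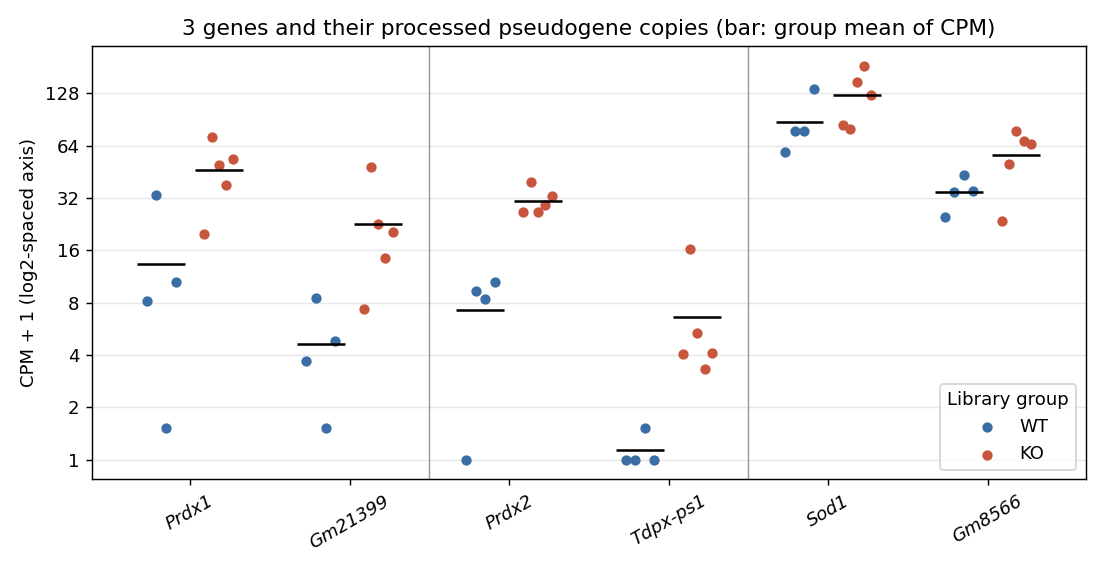
CPM + 1 on a log2-spaced axis for 3 genes and the processed pseudogene that copies each, with 1 point per library and a bar at the group mean of CPM. Each copy shows the same order of the groups as its gene: KO means above WT means, with a wide overlap for Sod1 and Gm8566.

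Other members of these enzyme families were followed from a list of 9, of which 6 were measured, and 4 were called higher on the deposited scale (32.0% of all genes were) and none on the relative scale (median 0.31). Prdx4, the peroxiredoxin of the endoplasmic reticulum, was at 2.25 to 9.49 CPM in WT and 18.5 to 35.0 CPM in KO. Every KO library thus lay above every WT library in CPM, as for 18.7% of all genes. Prdx4 was named for its small relative p, so this is no separate support. The log2 difference of Prdx4 was 1.98 (limma adjusted p = 0.0104) and its relative difference 1.00. Ccs, which loads copper into Sod1, averaged 6.58 ± 0.57 CPM over the WT libraries (SD, n = 4), against 19.2 ± 5.22 over the KO libraries (SD, n = 5; log2 difference 1.38, limma adjusted p = 0.0460; relative 0.40). Txnl1, a thioredoxin-like protein, and Nxn, nucleoredoxin, were the others called (log2 differences 1.42 and 1.21, relative 0.45 and 0.23). Txn2 was not called (log2 difference 1.13, relative 0.16).

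Among 12 of 15 listed thioredoxin partners 7 were called higher on the deposited scale, beside 32.0% of all genes, none lower and none on the relative scale (median 0.44). Txnip, the protein that binds and inhibits thioredoxin and limits glucose uptake, was at 118, 269, 176 and 417 CPM across WT libraries 1 to 4, against 674, 581, 1140, 726 and 949 CPM across KO libraries 1 to 5. Every KO library lay above every WT library, as for 18.7% of all genes in CPM and 2.07% on the relative scale. Txnip was named by a rule that used its relative p, so this separation is no separate support. Its differences were 1.84 (limma adjusted p = 0.00522) and 0.86 relative (SE 0.27, limma adjusted p = 0.229). Its relatives of the arrestin family gave 2.28 for Arrdc3 (limma adjusted p = 0.0126; relative 1.30) and 1.11 for Arrdc4 (not called, 0.0505; relative 0.13). Txnrd3, a thioredoxin reductase, had 1.70 (limma adjusted p = 0.0480, relative 0.72) from means of 1.91 and 7.72 CPM. It rests on 13 WT reads, with 0 in WT replicate 1, and edgeR with library totals did not call it (adjusted p = 0.0959).

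Of the glutathione genes 17 of 26 were measured, and 5 were called higher on the deposited scale and none on the relative scale (median 0.21). That is near the 32.0% of all genes called higher. Mgst1, a membrane-bound glutathione transferase, was at 16.6, 6.33, 6.83 and 6.65 CPM in WT replicates 1 to 4 and at 38.6 to 47.7 CPM in KO, a log2 difference of 2.25 (limma adjusted p = 0.00393; relative 1.27). Gstm2, a cytosolic glutathione transferase, had 2.08 (limma adjusted p = 0.0205, relative 1.10). It rests on 13 WT reads, with 0 in WT replicate 1, and edgeR with library totals did not call it (adjusted p = 0.0658). Gpx1, the main glutathione peroxidase and the most abundant of the list, had 1.41 (limma adjusted p = 0.0156, relative 0.44). Glrx5, a glutaredoxin of iron-sulphur cluster assembly, was not called (1.07, limma adjusted p = 0.0544; relative 0.09). Glrx2, a mitochondrial glutaredoxin, had close means in the groups, 13.9 ± 5.79 CPM (SD, n = 4) and 15.1 ± 3.53 CPM (SD, n = 5). On the relative scale its KO libraries all lay below the WT libraries (−0.80, limma adjusted p = 0.471), as for 1.74% of all genes. Glrx2 was named for its small relative p, so this separation is no separate support.

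NRF2 is the transcription factor that many of these genes answer to, and it works as a dimer with small Maf proteins while Bach1 competes for the same sites. Of 25 listed genes of NRF2, its partners and targets, 23 were measured. Of these, 12 were called higher on the deposited scale, beside 32.0% of all genes, and none on the relative scale (median 0.21). Relative differences lay above 0 for 17 of the 23, beside 57.9% of all genes. Those named here were picked for a small relative p or a high CPM. The small Maf genes Mafg and Mafk had log2 differences of 2.14 and 2.44 (limma adjusted p = 0.00442 and 0.00569; relative 1.17 and 1.47), and Bach1 had 1.89 (limma adjusted p = 0.0101; relative 0.91). Bach1 was at 4.05 to 18.1 CPM in WT and 22.5 to 58.9 CPM in KO, without overlap on either scale. KO libraries all lay above WT libraries for 18.7% of all genes in CPM and 2.07% on the relative scale. Nfe2l1, the NRF2 relative that drives proteasome genes, was at 337 ± 121 and 991 ± 508 CPM (n = 4 and 5; log2 difference 1.48, limma adjusted p = 0.0136; relative 0.51). Sqstm1, the autophagy adaptor p62 that binds Keap1, had 1.34 (limma adjusted p = 0.0200; relative 0.36).

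The genes of superoxide and peroxide production had a relative median of −0.01. Of 14 measured of 18 listed, 5 were called higher on the deposited scale, near the 32.0% of all genes, and none on the relative scale. Xdh, xanthine oxidoreductase, was at 54.4 to 104 CPM in WT and 136 to 332 CPM in KO (log2 difference 1.53, limma adjusted p = 0.00880; relative 0.55), and Rac1, a GTPase of the NADPH oxidase complex, had 1.62 (limma adjusted p = 0.0120; relative 0.64). Ncf1, the phagocyte oxidase subunit p47, was at 8.10 to 24.1 CPM in WT and 4.63 to 58.8 CPM in KO (−0.19, limma adjusted p = 0.784; relative −1.16, 0.460). Of 14 measured of 15 sestrins and other thiol stress genes, 5 were called higher on the deposited scale, again near 32.0%, and none on the relative scale (median 0.23). Pon2, a paraoxonase, and Park7, the redox-sensitive protein DJ-1, had 2.01 for each (limma adjusted p = 0.0123 and 0.00918; relative 1.03 for each; Pon2 without overlap on either scale), and Oxsr1, a stress-activated kinase, had 1.38 (limma adjusted p = 0.0201). A separation like that of Pon2 was seen for 18.7% of all genes in CPM and 2.07% on the relative scale. Pon2 was named for its small relative p, so its separation is no separate support. Sesn1, a sestrin, was at 44.7 ± 31.1 and 42.6 ± 17.2 CPM (n = 4 and 5), a relative difference of −0.92 (limma adjusted p = 0.332).

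**Figure D5:**
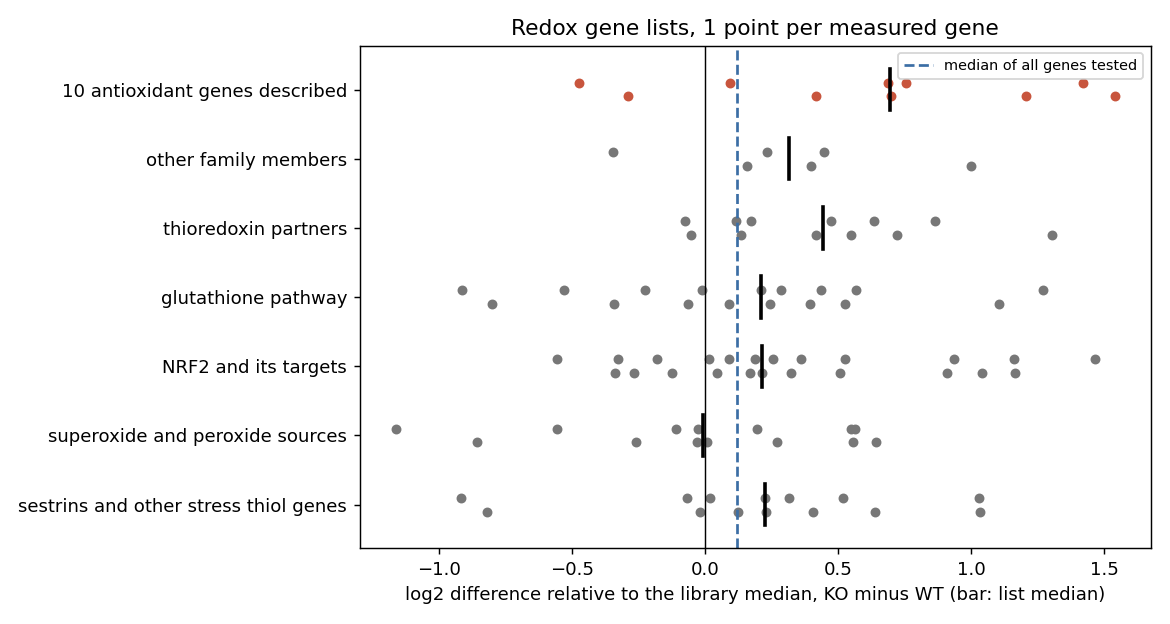
Log2 difference relative to the library median, KO minus WT, for the 10 antioxidant genes and 6 lists of related genes, with 1 point per measured gene, a black bar at each list's median and a dashed line at the median of all genes tested (0.12). The 10 genes have a median of 0.69, and the lists range from −0.01 to 0.44.

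Summed levels of several cell type marker lists differed between the groups, and in these bulk captures fewer cells of a type and less RNA per cell cannot be told apart. All 15 endothelial markers were measured, none at 0 in any library, with a summed level of 1075 to 3746 CPM in WT and 3230 to 7526 CPM in KO and 13 called higher on the deposited scale (relative median 0.40). The 14 adipocyte markers, also at 0 in no library, summed to 3610 to 7574 CPM in WT and 9412 to 21530 CPM in KO, with 5 called higher, near the 32.0% of all genes, and a relative median of −0.13. The 5 called were Retn, Pparg, Cfd, Pnpla2 and Car3, with log2 differences of 1.56, 1.30, 1.11, 1.10 and 1.03. Fabp4, which carries most of the adipocyte sum (mean 8442 CPM), was not called. The sum is thus mostly the level of 1 gene and does not stand for the list. Of the 14 only Adipoq, Plin1 and Slc2a4 lay below 0 on the deposited scale, at −0.29, −0.20 and −0.06. Their relative differences were −1.27, −1.17 and −1.04. Skeletal muscle markers (8 of 9 measured) summed to 56.2 to 141 CPM in WT and 331 to 7318 CPM in KO, the latter in KO replicate 5, which had the highest CPM of 5 of the 10 antioxidant genes. All 8 were called higher on the deposited scale, with a relative median of 2.16. Pericyte and smooth muscle markers (5 of 9) summed to 87.4 to 217 CPM in WT and 255 to 419 CPM in KO (relative median −0.21). Fibroblast markers (8 of 10) summed to 2747 to 9103 CPM in WT and 1868 to 12928 CPM in KO (relative median −0.42), and macrophage markers (10 of 10) to 306 to 1215 and 733 to 1580 CPM (−0.33). The part of these cells in the antioxidant differences was not tested beyond the covariate fits: with the adipocyte or the endothelial list mean as a covariate limma called none of the 10 genes (smallest adjusted p = 0.261 and 0.678) on the deposited scale, and 0 of all 11802 genes, so that count says nothing particular to the 10.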

How the data were processed

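The authors deposited 1 table of CPM for 11802 genes in 9 libraries. The submitters' processing notes list, without roles, R 4.0.2, edgeR 3.32.0, FastQC 0.11.9, HISAT2 2.1.0 and Trimmomatic 0.39, and both GRCm38 and mm10 as builds. Which counter, strand option and annotation produced the reads is not given in the sources used here. Per the labels' protocols each capture started from 50 to 100 mg of tissue, and 2 to 5 ng of the captured RNA went into a low-input cDNA kit, which keeps no strand. Symbols and coordinates came from GENCODE M21 by identifier (11787 matched). In each library all nonzero values were whole multiples of 1 read within 0.1 read (100%), so reads were recovered.

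Tests used limma 3.58.1 (R 4.3.3) with trend on log2(CPM + 1); a mean CPM minimum of 1 removed no gene (lowest mean 1.77). The added 1 shrinks the fold changes of low genes, yet these were not always below those of other methods. Limma gave 2.40 for Prdx1 and 2.18 for Prdx3 on the deposited scale, where edgeR with library totals gave 1.87 and 2.49. The limma value was also higher for Prdx2, Sod2 and Gsr, and lower for the remaining members. EdgeR 4.0.16 and DESeq2 1.42.0 ran on the recovered reads. The relative limma fit, edgeR with TMM scaling and DESeq2 were also run on simulated counts, and the outcome is not reported here. Those counts were drawn from mean shares over all libraries, without the mitochondrial rRNA difference seen here. The deposited-scale fit and the permutation test of the ratios were not simulated. Intervals and the limit of 3 reads for a count of 0 cover sampling or counting error only. Genes named beside the 10 were, per list, the 3 with the smallest relative p and the 2 with the highest mean CPM, and Txn2. A gene that this rule names and a sequence are not reported here. The members and lists were chosen with earlier results of these data known. Copies were matched with blastn (at least 85% identity over 100 bases).
Each fit was repeated with 0.5 or 5 as the pseudocount, with a stricter CPM minimum (5) or none, and with limma without its trend, array weights, quantile normalisation, a replicate block, each library left out, WT replicate 4 and KO replicate 5 left out together, adipocyte, endothelial or mitochondrial rRNA covariates, rescaling without mitochondrial rRNA and, added after the values were seen, copies summed with their genes.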

Additional observations from a re-analysis of the deposited data

Results flagged for a closer look

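The Prdx3 to Prdx1 log2 ratio of KO replicate 2, −3.90, lay far below the other 4 KO libraries (−2.04 to −1.37): its gap to the next was 0.733 of the group's range. It rests on 8 reads of Prdx3 and 148 of Prdx1. Among 26 groups of values examined this way it was the only one set apart, and chance sets apart about 1 in 20.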

How the results depend on the processing

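The number of the 10 genes called higher on the deposited scale was 7, and it was 4 with the replicate number as a block, 2 to 8 with 1 library left out, and 0 with the adipocyte, endothelial or mitochondrial rRNA covariate or with CPM rescaled without mitochondrial rRNA. The block kept Prdx1, Prdx2, Sod2 and Gsr. Calls over all genes, in either direction, fell from 3804 to 1940 with the block. They fell to 18 with the mitochondrial rRNA covariate and to 26 after the rescaling, so the loss was not particular to the 10. The numbers were not taken as pairs because the labels do not say that a number marks a shared animal, litter or day. Same-numbered libraries correlated at −0.04 to 0.04. None of the 10 was called on the relative scale in any of the alternatives run. The cause of these changes was not tested. Over all genes the calls on the deposited scale ranged from 0 (adipocyte or endothelial covariate) to 5916 higher (without WT replicate 4), beside 3780, and from 0 to 25 lower, beside 24. On the relative scale they ranged from 0 to 31 higher and from 0 to 124 lower, beside 4 and 9. Both maxima came from DESeq2, which gave an adjusted p for only 4009 genes.

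Some signs turned, also for called genes: under the endothelial covariate Rac1 and Nxn, at 1.62 and 1.21 and called on the deposited scale, went to just below 0. On that scale the endothelial covariate gave −0.53 for Prdx5, −0.49 for Sod1, −0.0179 for Nxn, −0.0212 for Txn2, −0.0591 for Arrdc4, −0.0595 for Rac1, −0.17 for Glrx2, 0.46 for Ncf1 and −0.67 for Sesn1. The mitochondrial rRNA covariate gave −0.20 for Prdx5, −0.17 for Sod1, −0.32 for Glrx2 and −0.84 for Sesn1. Rescaling without mitochondrial rRNA gave −0.0843 for Sod1, −0.38 for Glrx2 and −0.52 for Sesn1, and the adipocyte covariate −0.18 for Glrx2 and −0.0104 for Sesn1. EdgeR gave 0.24 for Ncf1 and −0.0395 for Sesn1, and Ncf1 was at 0.16 with the replicate block and 0.29 without WT replicate 4 and KO replicate 5.
On the relative scale the endothelial covariate gave −0.23 for Arrdc4, −0.0829 for Txn2, −0.33 for Nxn and −0.16 for Glrx5, and the mitochondrial rRNA covariate −0.0612 for Arrdc4, −0.14 for Txn2 and −0.0685 for Sqstm1. The adipocyte covariate gave −0.11 for Arrdc4 and −0.0647 for Glrx5, and for Glrx5 edgeR gave −0.0799 and DESeq2 −0.0781. Arrdc4 was at −0.0486 with the replicate block, and Nxn at −0.00156 without WT replicate 4 and KO replicate 5. With 1 library left out, values on the deposited scale ranged from −0.0851 to 0.35 for Glrx2, −0.22 to 0.46 for Sesn1 and −0.69 to 0.16 for Ncf1. Relative values ranged from −0.0510 to 0.33 for Txn2, −0.0647 to 0.46 for Nxn, −0.0716 to 0.35 for Arrdc4, −0.19 to 0.38 for Glrx5 and −0.10 to 0.26 for Cat. The Prdx3 to Prdx1 ratio ranged from −0.57 to 0.23 and was 0.12 with a pseudocount of 0.5. Sod2 to Sod1 ranged from 0.58 to 1.73 and was 0.43 without WT replicate 4 and KO replicate 5.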
